A study of Homo sapiens with 18 samples.

Results

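The 10 genes described here belong to the glutathione synthesis route and to the targets of the transcription factor NRF2, and were followed in EpCAM+ cells of 2 hepatocellular carcinoma (HCC) lines. They were chosen by name: GCLC, GCLM, GSS, GSR, SLC7A11, HMOX1, NQO1, TXNRD1, SRXN1 and OSGIN1. Every probe whose RefSeq accession names 1 of them was taken, which gave 11 probes, 2 of them for GSR, among 42405 probes on the array and 15747 genes tested. All 11 probes were well above background, by the scanner software's own flag, on all 18 arrays, so no member was lost to a filter.

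NRF2, encoded by NFE2L2, is held in the cytoplasm by KEAP1, which hands it to a CUL3 ubiquitin ligase. Oxidants and electrophiles that modify KEAP1 release it, and it then pairs with a small MAF protein at antioxidant response elements, where BACH1 competes with it. Its targets make glutathione, import cystine, reduce thioredoxin and quinones, and break down heme, and the pathway is often active in liver cancer.

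The cells were Huh1 and Huh7, established HCC lines. Each was treated for 48 h with disulfiram (DSF, 0.1 µM) or 5-fluorouracil (5-FU, 1 µM), or served as control, for which no time is given. EpCAM+ cells, the fraction the study treats as tumor-initiating, were isolated by flow sorting. Each of the 6 groups had 3 arrays, described by the study as independent experiments. Copper chloride is listed together with DSF in the study's methods and what control cells received is not stated, so DSF and copper cannot be told apart. Fewer cells of a kind and less RNA per cell cannot be told apart either in these bulk samples. The values are normalized log2 signals: log2 of the processed spot signal minus the 75th percentile of its array, so 0 is the 75th percentile and a difference of 1 is a 2-fold difference in level. A gene was called when limma, fitted to all 18 arrays, gave a Benjamini-Hochberg adjusted p below 0.05, adjusted over 29750 probes.

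Between 59.3% and 70.5% of probes per array were well above background. The arrays lay on 3 slides: both groups of each 5-FU against control comparison shared 1 slide, while Huh7 DSF replicates 2 and 3 were alone on slide 3 and Huh7 DSF replicate 1 lay on slide 2 with the Huh7 controls. Within groups the median difference between arrays ran from 0.0569 to 0.216 on the log2 scale, and replicate 1 of the Huh1 control, Huh1 5-FU, Huh7 5-FU and Huh7 DSF groups lay farther from the other 2 than those lay from each other. The 75th percentile lay 2.02 to 2.45 log2 units below the spike-in signal on the 5-FU arrays and 2.94 to 3.48 below it on the others, so every change after 5-FU is a change relative to the bulk of probes. All 8 epithelial and liver markers were well above background on all arrays. EPCAM lay at 2.57 to 2.71 in Huh1 control cells and at 5.47 to 5.53 in Huh7 control cells. Its level fell by 0.66 and by 0.50 after DSF in Huh1 and in Huh7 (adjusted p = 0.00628 and 0.0294). Of the 8 markers DSF raised 1 and lowered 6 in Huh1, and raised 2 and lowered 3 in Huh7. Of all genes tested 52.9% and 53.4% were called. The marker that rose in Huh1 was KRT19, from 4.04, 2.39 and 2.29 to 4.90, 4.87 and 4.89. Of 8 markers of other cell types, PTPRC, the pan-leukocyte marker, stayed between -5.02 and -4.33, low but flagged above background on all arrays. COL3A1 and ACTA2 were above background on no array, and VWF was near background. COL1A1 was above background on no Huh1 array but on all Huh7 control and 5-FU arrays (means -3.90 and -3.34). On Huh7 DSF arrays its mean was -5.90. CD68, PECAM1 and LUM were above background on all arrays and rose after 5-FU in Huh7 by 1.59, 1.02 and 2.72. Their part in the results after 5-FU was not tested.

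The regulatory sequence in front of the genes was read from RefSeq windows (assembly GRCh38.p14) that reach 250 bases before to 50 bases after each gene's start; the array design uses an older build, and no array coordinates are given. Windows were found for 6 of the 10 genes: GCLC, GCLM, NQO1, SRXN1, OSGIN1 and, with 2 starts, TXNRD1. The core of the antioxidant response element, TGACNNNGC on either strand, was present in 13.3% of 34796 distinct windows of this length. GCLM and both TXNRD1 windows held it, and the stretches around it are shown because these are the only members whose window carried the core; it is in capitals, read 5′ to 3′ on the strand of the gene.
GCLM, chr1:93909431-93909504, minus strand: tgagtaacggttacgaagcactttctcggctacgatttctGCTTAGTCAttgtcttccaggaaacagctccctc
TXNRD1, first start, chr12:104215640-104215728, plus strand: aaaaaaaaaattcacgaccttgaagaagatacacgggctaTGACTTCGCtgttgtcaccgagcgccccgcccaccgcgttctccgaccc
TXNRD1, other start, chr12:104286890-104286978, plus strand: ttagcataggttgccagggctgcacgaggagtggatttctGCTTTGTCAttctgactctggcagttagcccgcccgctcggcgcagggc
The GCLM core began 34 bases before the start and lay on the opposite strand. The TXNRD1 cores began 99 and 102 bases before their starts, the latter on the opposite strand, and the first TXNRD1 window held another core across the start itself. The AP-1 site TGANTCA, present in 7.73% of windows, occurred in the OSGIN1 window, 97 bases before the start, and overlapped no antioxidant core. A match of letters is a description, and elements farther from the start lie outside these windows.

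In the absence of drug, 9 of the 10 genes had a lower level in Huh7 than in Huh1, and GSR alone had a higher one. Of all genes tested 38.8% were lower and 39.4% higher in Huh7 by the same test, 78.2% in all. The median change of the 10 genes was -2.14 on the log2 scale, beside -0.01 over all genes tested. HMOX1, the heme-degrading enzyme that makes biliverdin, carbon monoxide and iron, differed most: its levels were 6.31, 6.23 and 6.22 on the Huh1 control arrays and 2.91, 2.91 and 2.97 on the Huh7 control arrays (log2 change -3.32 ± 0.16 SE, adjusted p = 7.86e-11). GCLC, the catalytic subunit of glutamate-cysteine ligase, which sets the pace of glutathione synthesis, was 6.5-fold lower (log2 change -2.70, adjusted p = 1.25e-13). NQO1, the quinone reductase, TXNRD1, the cytosolic thioredoxin reductase, OSGIN1, an oxidative stress-induced growth inhibitor, and SRXN1, which repairs overoxidized peroxiredoxins, were 5.24-, 5.02-, 4.68- and 4.17-fold lower. GCLM, the modifier subunit of the ligase, and SLC7A11, the cystine importer of system xc-, were 2.63- and 2.23-fold lower. GSS, glutathione synthetase, differed least (log2 change -0.19, adjusted p = 0.0142) and its call was lost with quantile, spike-in and normexp settings. GSR, glutathione reductase, was 1.86-fold higher in Huh7 by its brighter probe and 1.34-fold higher by the other (adjusted p = 2.14e-09 and 1.58e-05). Huh1 and Huh7 controls lay on different slides, and with slide as a block, which rests on the Huh1 DSF array on slide 2, all 10 calls and their directions held, HMOX1 at -3.40 and GCLC at -2.68.

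**Figure D1:**
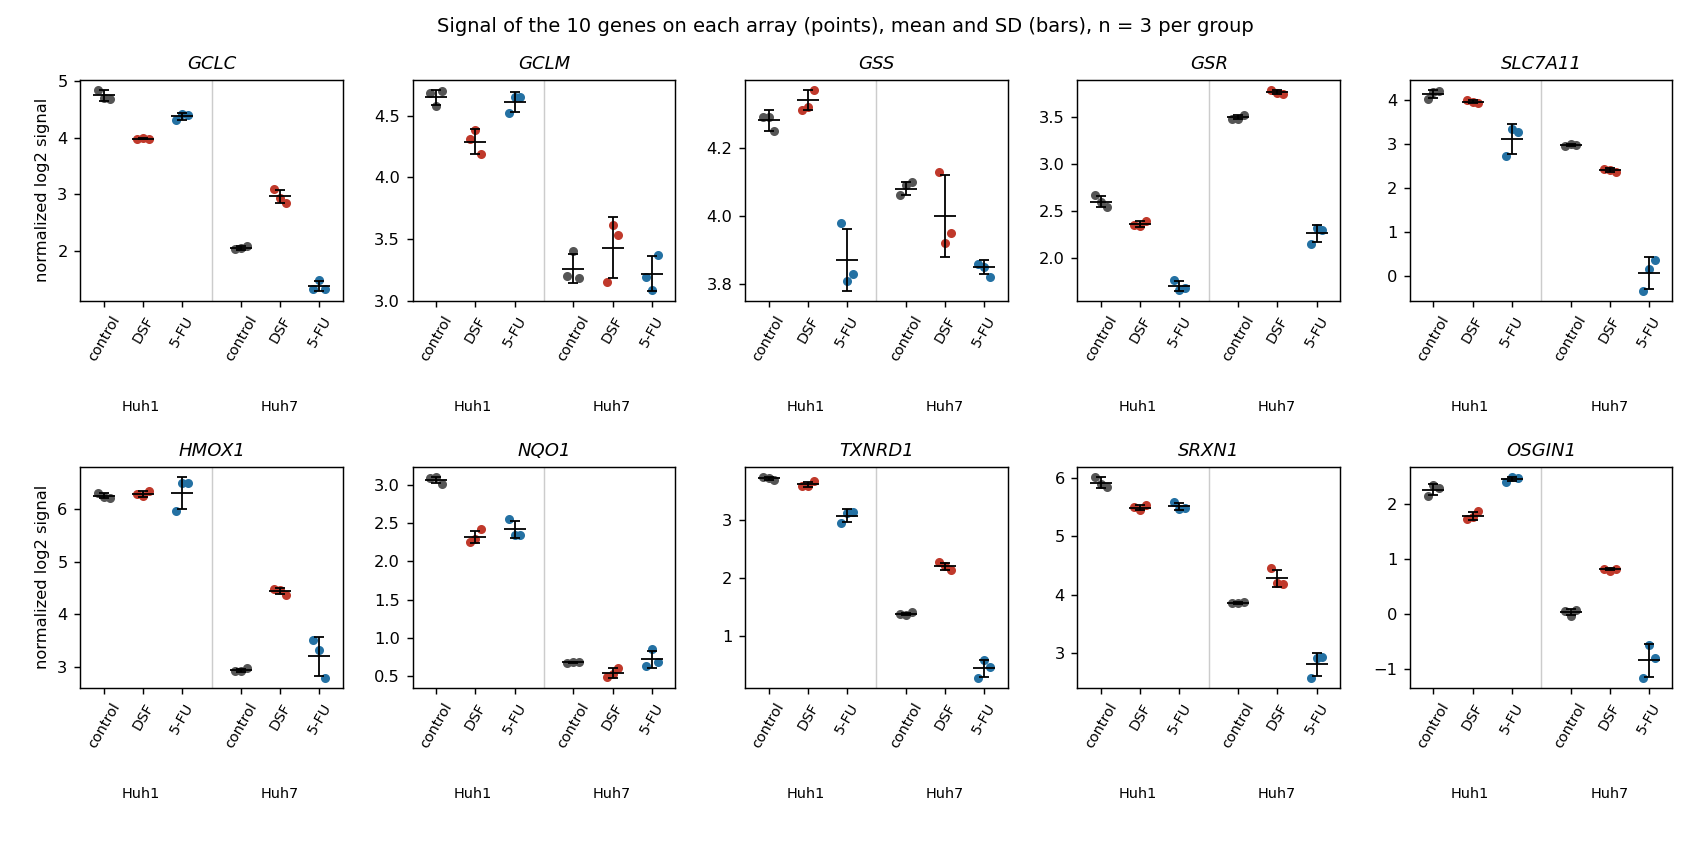
Normalized log2 signal (vertical axis, a separate scale in each panel) of the 10 genes on each of the 18 arrays (points: grey control, red DSF, blue 5-FU) with the mean and SD of each group of 3. GCLC, TXNRD1, SRXN1, OSGIN1 and HMOX1 are lower on every Huh7 array than on every Huh1 array, and in these 5 panels the Huh7 DSF points lie above the Huh7 control points.

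DSF lowered 6 of the 10 genes in Huh1 and raised none; in Huh7 it raised 6 and lowered 1. In Huh1 26.5% of all genes tested were lower and 26.4% higher (52.9% in all), and in Huh7 29.3% were higher and 24.1% lower (53.4% in all). The median log2 change of the 10 genes was -0.30 in Huh1, beside -0.02 over all genes, and 0.35 in Huh7, beside 0.04. GCLC, GSR, SRXN1 and OSGIN1, 4 of the 10, were called in opposite directions in the 2 lines, GSR by its brighter probe only. For neither drug was it counted how many of all genes were called in opposite directions, or in the same direction, in both lines.

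Among the genes of glutathione synthesis, GCLC moved most. In Huh1 its level was 4.85, 4.70 and 4.69 on control arrays and 3.98, 3.99 and 3.97 on DSF arrays, a fall by 0.77 ± 0.071 (SE) on the log2 scale (adjusted p = 1.09e-06). In Huh7 it was 2.03, 2.04 and 2.08 on control arrays and 3.09, 2.94 and 2.85 on DSF arrays, a 1.88-fold rise (log2 change 0.91 ± 0.071, adjusted p = 2.35e-07). No DSF array overlapped the control arrays in either line, and the lines lay closer together with DSF than without it. Over the 6 groups GCLC ran, from high to low, Huh1 control, Huh1 5-FU, Huh1 DSF, Huh7 DSF, Huh7 control and Huh7 5-FU, with no overlap between any neighbours. Its partner GCLM changed less: it was 4.68, 4.58 and 4.70 on Huh1 control arrays and 4.31, 4.38 and 4.19 on Huh1 DSF arrays (log2 change -0.36, adjusted p = 0.0182), a call lost without Huh1 control replicate 3 (-0.34, adjusted p = 0.0554) or Huh1 DSF replicate 3 (-0.31, adjusted p = 0.0722). In Huh7 GCLM was 3.20, 3.40 and 3.18 on control arrays and 3.15, 3.61 and 3.53 on DSF arrays; the groups overlapped, and the change of 0.17 (95% interval -0.07 to 0.41) was not called. The Huh7 DSF array that shared the controls' slide was the low one, so that within slide 2 the GCLM change was -0.11, and without that array it was 0.31 and called (adjusted p = 0.0163).

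GSS did not pass the test after DSF: its log2 change was 0.06 (95% interval -0.07 to 0.20) in Huh1, or -0.11 with median scaling, and -0.08 (-0.22 to 0.05) in Huh7, where it was 0.05 within slide 2. Without Huh7 DSF replicate 1, the array on slide 2, the Huh7 change of GSS was -0.15 and called (adjusted p = 0.0433). GSR, which returns oxidized glutathione to its reduced form, was 2.67, 2.60 and 2.54 on Huh1 control arrays and 2.35, 2.34 and 2.39 after DSF (log2 change -0.24, adjusted p = 0.00274), and its other probe fell by 0.40. In Huh7 the brighter probe went from 3.48, 3.48 and 3.52 to 3.79, 3.76 and 3.75 (log2 change 0.27, adjusted p = 0.00123), whereas the other probe had 1.85, 1.77 and 1.88 on control arrays and 1.88, 1.73 and 1.76 on DSF arrays (-0.05, adjusted p = 0.564). The 2 GSR probes therefore disagreed in Huh7, and the mean of both (0.11, adjusted p = 0.103) was not called. SLC7A11 was 4.04, 4.18 and 4.22 on Huh1 control arrays and 4.0, 3.96 and 3.94 on DSF arrays, a change of -0.18 (95% interval -0.52 to 0.17) that did not pass. In Huh7, where it was the only member called lower on the main scale, it went from 2.97, 3.01 and 2.98 to 2.44, 2.41 and 2.37 (log2 change -0.58 ± 0.16, adjusted p = 0.00909). These 6 arrays did not overlap. The change was -0.54 both within slide 2 and with slide as a block, and was called in neither (adjusted p = 0.187 and 0.123).

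Of the other NRF2 targets, HMOX1 gave the largest rise after DSF, in Huh7 alone. Its level was 2.91, 2.91 and 2.97 on Huh7 control arrays and 4.48, 4.46 and 4.37 on DSF arrays, a 2.84-fold rise (log2 change 1.51 ± 0.16, adjusted p = 3.7e-06). In Huh1 it was 6.31, 6.23 and 6.22 without and 6.29, 6.25 and 6.35 with DSF; the groups overlapped, and the change of 0.04 (95% interval -0.30 to 0.38) became -0.13 with median scaling. The raised level in Huh7 thus stayed below every Huh1 array. TXNRD1 behaved likewise: it rose from 1.37, 1.36 and 1.41 to 2.27, 2.20 and 2.14 in Huh7 (log2 change 0.82 ± 0.074, adjusted p = 9.2e-07), and in Huh1 it was 3.73, 3.71 and 3.68 on control and 3.58, 3.58 and 3.66 on DSF arrays. That Huh1 change of -0.10 (95% interval -0.26 to 0.06) was not called, although median scaling called it at -0.27 and spike-in scaling gave 0.03.

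SRXN1 and OSGIN1 fell in Huh1 and rose in Huh7. SRXN1 went from 6.02, 5.89 and 5.85 to 5.5, 5.45 and 5.53 in Huh1 (log2 change -0.43, adjusted p = 0.00197). In Huh7 it went from 3.85, 3.85 and 3.88 to 4.46, 4.20 and 4.19 (0.42, adjusted p = 0.00221), with the highest value on the array that shared the controls' slide. OSGIN1 went from 2.14, 2.34 and 2.28 to 1.73, 1.75 and 1.86 in Huh1 (-0.47, adjusted p = 0.00306) and from 0.05, -0.04 and 0.07 to 0.82, 0.78 and 0.82 in Huh7 (0.78, adjusted p = 6.51e-05). In neither gene did DSF and control arrays of a line overlap. NQO1, often used as the readout of NRF2 activity, fell in Huh1 from 3.09, 3.10 and 3.02 to 2.26, 2.29 and 2.42 (log2 change -0.75 ± 0.072, adjusted p = 1.66e-06). In Huh7 it did not follow HMOX1, TXNRD1 and GCLC upward: it was 0.67, 0.68 and 0.68 on control arrays and 0.49, 0.53 and 0.61 on DSF arrays, a change of -0.14 (95% interval -0.29 to 0.02) that was not called although all 3 DSF arrays lay below all control arrays.

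Spike-in scaling moved the median of all probes after DSF to 0.14 in Huh1 and -0.09 in Huh7, and median scaling moved it to -0.17 in Huh1. With spike-ins in place of the 75th percentile there remained 2 of the 6 Huh1 calls, GCLC (-0.63) and NQO1 (-0.61), while GCLM, GSR, SRXN1 and OSGIN1 kept their direction without a call. In Huh7 it left 4 genes higher, GCLC, HMOX1, TXNRD1 and OSGIN1, and SLC7A11 lower, and quantile scaling gave 6 higher and 2 lower. Within slide 2 the Huh7 changes of GCLC, HMOX1, TXNRD1, SRXN1 and OSGIN1 were 1.04, 1.55, 0.89, 0.60 and 0.79, and the first 4 of these were called with 1 DSF array against 3.

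**Figure D2:**
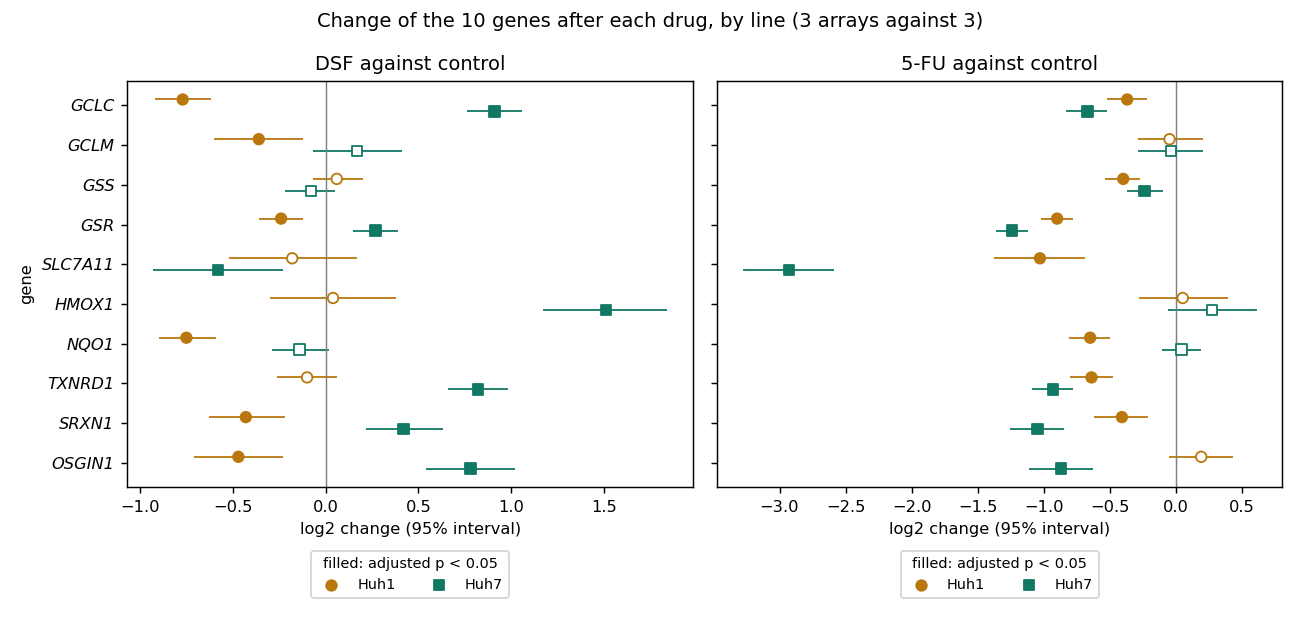
Log2 change of the 10 genes after DSF (left) and after 5-FU (right) in Huh1 (circles) and Huh7 (squares), with 95% intervals from limma and filled symbols for adjusted p below 0.05. After DSF the intervals of GCLC, GSR (brighter probe), SRXN1 and OSGIN1 lie below 0 in Huh1 and above 0 in Huh7. After 5-FU no called gene lies above 0 on this scale. With spike-in scaling, where the median of all probes also moves above 0, 6 called genes in Huh1 and 4 in Huh7 do. The share of all genes called with spike-ins was not counted.

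The difference between the lines in the response to DSF was tested directly as the change in Huh7 minus the change in Huh1. It was above 0 and called for 8 of the 10 genes and below 0 and called for none, where 24.5% of all genes tested were called above 0 and 22.0% below (46.5% in all). It was largest for GCLC (1.68 ± 0.10 on the log2 scale, adjusted p = 4.85e-08), HMOX1 (1.47 ± 0.22, adjusted p = 0.000148) and OSGIN1 (1.25 ± 0.16, adjusted p = 3.29e-05). TXNRD1 (0.92), SRXN1 (0.85), NQO1 (0.61), GCLM (0.53) and GSR (0.52) followed. NQO1 fell in Huh1 and was not called in Huh7. The GCLM difference was lost with slide as a block (0.20, adjusted p = 0.371). GSS (-0.14, 95% interval -0.33 to 0.05) and SLC7A11 (-0.40, -0.89 to 0.09) were not called, although without Huh7 DSF replicate 1 the GSS difference was -0.21 and called (adjusted p = 0.0388). Quantile scaling gave 7 differences above 0 and 1 below. Spike-in scaling left GCLC, HMOX1, TXNRD1 and OSGIN1 called above 0 and called SLC7A11 below 0.

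5-FU gave another pattern. Relative to the bulk of probes it lowered 7 of the 10 genes in each line and raised none, 6 of them in both: GCLC, GSS, GSR, SLC7A11, TXNRD1 and SRXN1. Lower calls made up 29.1% of all genes in Huh1 and 31.1% in Huh7, and higher calls 26.0% and 32.6%, so that 55.1% and 63.7% of all genes were called. The median log2 change of the 10 genes was -0.41 in Huh1, beside -0.02 over all genes, and -0.77 in Huh7, beside 0.00. These directions depended on the scaling. With spike-ins as the reference the median of all probes tested moved to 0.80 in Huh1 and 0.94 in Huh7, and 6 members were then called higher and 0 lower in Huh1, 4 higher and 1 lower in Huh7.

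SLC7A11 showed the largest change of any member. In Huh7 its level was 2.97, 3.01 and 2.98 on control arrays and -0.34, 0.16 and 0.35 on 5-FU arrays, 7.63-fold lower (log2 change -2.93 ± 0.16, adjusted p = 3.06e-09), and it was still lower with spike-in scaling (-1.95, adjusted p = 7.22e-08). In Huh1 it went from 4.04, 4.18 and 4.22 to 2.72, 3.34 and 3.28 (-1.03, adjusted p = 0.000119; -0.20 and not called with spike-ins), the lowest array being replicate 1. The fall was deeper in Huh7 by 1.90 ± 0.23 (adjusted p = 2.34e-05). GSR fell by 0.90 in Huh1, from 2.67, 2.60 and 2.54 to 1.76, 1.66 and 1.68 (adjusted p = 5.02e-08), and by 1.24 in Huh7, from 3.48, 3.48 and 3.52 to 2.15, 2.32 and 2.30 (adjusted p = 5.57e-10). Its other probe gave -0.83 and -0.90, and with spike-ins the brighter probe gave -0.07 and -0.26, neither called. Among the called falls, only those of SLC7A11 and GSR in both lines and of SRXN1 in Huh7 kept their direction with quantile, median and spike-in scaling.

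The other changes called after 5-FU were above 0 with spike-in scaling, except that of SRXN1 in Huh7. GCLC was 4.31, 4.42 and 4.40 in Huh1 and 1.32, 1.48 and 1.32 in Huh7 after 5-FU, lower by 0.37 and 0.67 on the log2 scale (adjusted p = 0.000611 and 1.6e-06), and 0.46 and 0.31 above control with spike-ins. TXNRD1 was 2.94, 3.12 and 3.14 in Huh1 and 0.28, 0.58 and 0.47 in Huh7 (changes -0.64 and -0.93, against 0.19 and 0.05 with spike-ins). SRXN1 was 5.58, 5.46 and 5.48 in Huh1 and 2.58, 2.92 and 2.93 in Huh7 (changes -0.41 and -1.05, against 0.41 and -0.07). GSS, at 3.98, 3.81 and 3.83 in Huh1 and 3.86, 3.85 and 3.82 in Huh7, changed by -0.40 and -0.24, or 0.42 and 0.74 with spike-ins. In all 4 of these genes no 5-FU array overlapped the controls of its line on the main scale. All 4 were already called, and how many of all genes had no overlap was not counted.

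NQO1 and OSGIN1 separated the lines after 5-FU. NQO1 fell in Huh1 to 2.55, 2.35 and 2.35 (log2 change -0.65, adjusted p = 5.76e-06; 0.18 with spike-ins), and in Huh7 it was 0.63, 0.85 and 0.68, overlapping the controls (0.04, 95% interval -0.11 to 0.19). OSGIN1 was 2.40, 2.48 and 2.46 in Huh1, above all 3 control arrays without passing the test (0.19, 95% interval -0.05 to 0.43); with Huh7 5-FU replicate 1 left out of the shared fit the same change was called (adjusted p = 0.0375). In Huh7 OSGIN1 fell to -1.16, -0.56 and -0.80 (-0.87, adjusted p = 1.09e-05; 0.11 with spike-ins). GCLM did not pass in either line: 4.52, 4.65 and 4.65 in Huh1 (-0.05, 95% interval -0.29 to 0.20) and 3.19, 3.09 and 3.37 in Huh7 (-0.04, -0.29 to 0.20), or 0.78 and 0.94 with spike-ins. HMOX1 did not pass either, and its 5-FU arrays were spread: 5.96, 6.49 and 6.49 in Huh1 (0.05, -0.28 to 0.39) and 3.5, 3.32 and 2.79 in Huh7 (0.27, -0.06 to 0.61). Without Huh7 5-FU replicate 3 the HMOX1 change was 0.48 and was called (adjusted p = 0.00624). With spike-ins HMOX1 was called higher in both lines (0.88 and 1.26), as were GCLM in both, OSGIN1 in Huh1 (1.02) and NQO1 in Huh7 (1.02), so these genes were called or not depending on the scaling.

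**Figure D3:**
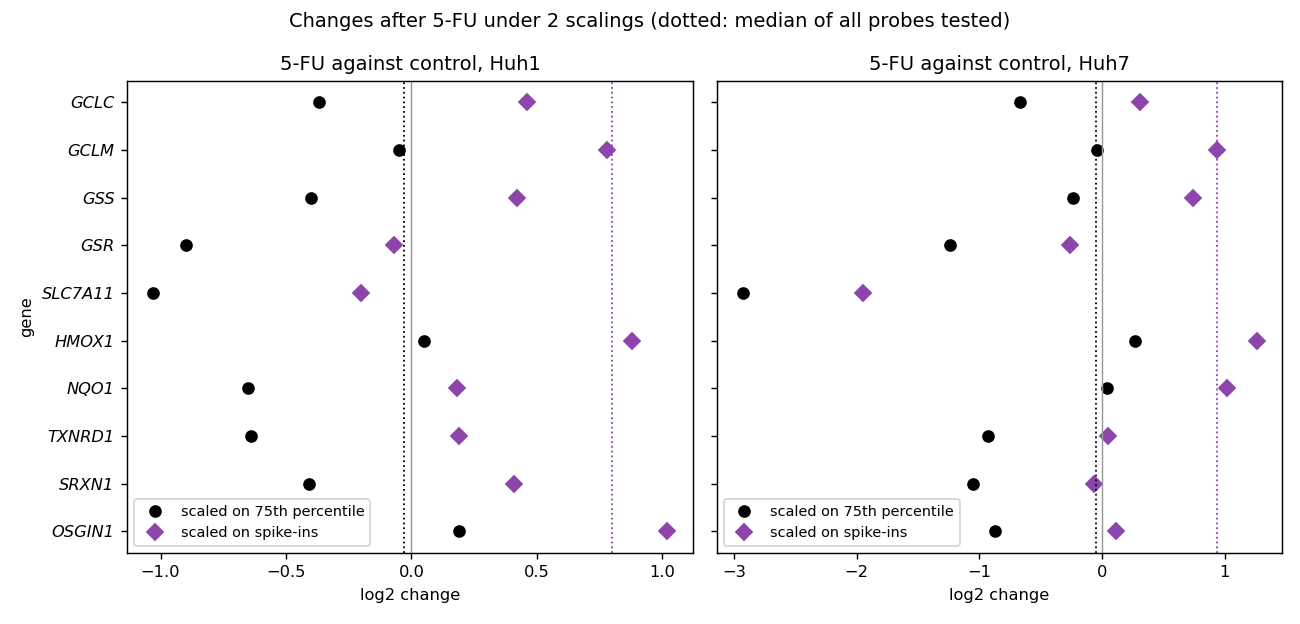
Log2 change of the 10 genes after 5-FU in Huh1 (left) and Huh7 (right) with arrays scaled on their 75th percentile (black circles) or on 7 spike-in probes (purple diamonds); dotted lines mark the median of all probes tested under each scaling. With spike-in scaling the medians move to 0.80 and 0.94, most genes pass above 0, and SLC7A11 in Huh7 stays at -1.95.

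The response to 5-FU also differed between the lines, as Huh7 change minus Huh1 change, for 7 of the 10 genes: 6 below 0 and 1 above, where 20.0% of all genes were called below 0 and 23.7% above (43.8% in all). Beside SLC7A11 (-1.90), OSGIN1 (-1.06 ± 0.16, adjusted p = 0.000131) and SRXN1 (-0.64, adjusted p = 0.00189) differed most, and NQO1 (0.69, adjusted p = 0.000128) was the gene above 0. GSR (-0.34, adjusted p = 0.00421) differed by its brighter probe and not by the other (-0.07, adjusted p = 0.582). GCLC (-0.30) and TXNRD1 (-0.30) passed narrowly (adjusted p = 0.0287 and 0.0389), and the calls were lost on leaving out 1 array in 7 and 9 of 18 cases (GCLC -0.28 to -0.29, TXNRD1 -0.22 to -0.31). Spike-in scaling left SLC7A11, OSGIN1 and NQO1 called.

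Set directly against 5-FU, DSF gave higher levels of 8 genes and a lower level of 1 in Huh7, and higher levels of 4 and lower levels of 3 in Huh1. Of all genes tested 34.6% were higher and 30.8% lower in Huh7 (65.4% in all), and 30.5% and 25.5% in Huh1 (56.0% in all). In Huh7 the differences were 2.35 for SLC7A11, 1.76 for TXNRD1, 1.65 for OSGIN1, 1.58 for GCLC, 1.51 for GSR, 1.48 for SRXN1 and 1.23 for HMOX1 on the log2 scale, with adjusted p between 1.04e-10 and 1.08e-05. GSS (0.16, adjusted p = 0.0446) and NQO1 (-0.18, adjusted p = 0.0481) passed narrowly and lost their calls on leaving out 1 array in 13 and 14 of 18 cases. The largest drops came without Huh7 DSF replicate 1 for GSS (0.09) and Huh7 5-FU replicate 2 for NQO1 (-0.11). GCLM (0.21, 95% interval -0.03 to 0.46) was not called, but was without Huh7 DSF replicate 1 (0.35, adjusted p = 0.00601). With spike-ins, which moved the median of all probes to -1.04 in Huh7 and -0.61 in Huh1, the Huh7 split was 5 higher and 3 lower, with GCLM at -0.95 and GSS at -1.0. In Huh1 SLC7A11 (0.85), GSR (0.66), TXNRD1 (0.54) and GSS (0.47) were higher with DSF than with 5-FU, while OSGIN1 (-0.67), GCLC (-0.40) and GCLM (-0.31) were lower. Spike-in scaling made that 0 higher and 6 lower. GSR at -0.04, TXNRD1 at -0.16 and GSS at -0.23 then lay below 0 without a call. The GCLM call in Huh1 was lost without Huh1 5-FU replicate 2 or 3 or Huh1 DSF replicate 1 or 3 (adjusted p = 0.0645 to 0.117).

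The regulators of NRF2 were measured on the same arrays. The 1 named probe for NFE2L2 itself was well above background on none of the 18 arrays, so it gave no level of the factor's mRNA here. Of the other 8 regulators DSF raised 5 and lowered 0 in Huh1, and raised 6 and lowered 1 in Huh7. The share called was 62.5% and 87.5%, beside 52.9% and 53.4% of all genes. With spike-ins the counts were 5 and 0, and 4 and 1. On the main scale 4 rose in both lines: MAFF, MAFK, MAFG and SQSTM1. MAFF, a small MAF partner, went from -2.36, -1.48 and -1.46 to 1.94, 2.02 and 1.97 in Huh1 (log2 change 3.74, adjusted p = 5.56e-09) and from 0.87, 0.83 and 0.87 to 1.97, 2.16 and 2.15 in Huh7 (1.24, adjusted p = 0.000176). Its Huh1 control arrays were themselves spread, with replicate 1 lowest. MAFK rose by 1.70 and 0.82 and MAFG by 0.59 and 0.50. SQSTM1, the autophagy receptor p62 that can sequester KEAP1, rose by 0.63 in Huh1 and by 1.77 in Huh7, from 3.95, 3.92 and 3.93 to 5.70, 5.73 and 5.67 (adjusted p = 4.7e-10).

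KEAP1 and BACH1, which restrain the pathway, rose in Huh7 with DSF, where 6 of the 10 members were called higher and SLC7A11 lower. With spike-ins 4 regulators were called higher after DSF in Huh7, beside 6 on the main scale. KEAP1 was 1.00, 1.04 and 1.08 on Huh7 control arrays and 1.75, 1.67 and 1.66 on DSF arrays (0.65, adjusted p = 1.87e-07). It was 4.57-fold lower in Huh7 than in Huh1 control cells, where it was 3.21, 3.27 and 3.23. BACH1 went from 1.26, 1.31 and 1.30 to 2.06, 1.71 and 1.71 (0.53, adjusted p = 0.000122), with the highest value on the array that shared the controls' slide. In Huh1 neither passed after DSF (KEAP1 -0.07, or 0.07 with spike-ins; BACH1 -0.14). NFE2L1, the related factor NRF1, rose in Huh1 (0.59) and fell in Huh7 (-0.30, adjusted p = 0.00204), and CUL3 did not pass in either line after DSF. After 5-FU 4 regulators rose and 2 fell in Huh1, and 2 rose and 1 fell in Huh7, or 7 and 0 in each with spike-ins. MAFF rose by 2.49 in Huh1, SQSTM1 by 0.41 and 0.71, and KEAP1 by 0.14 and 0.44, all higher still with spike-ins, whereas the falls of CUL3 (-0.65) and BACH1 (-0.28) in Huh1 and of NFE2L1 (-0.78) in Huh7 turned to 0.18, 0.55 and 0.20.

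**Figure D4:**
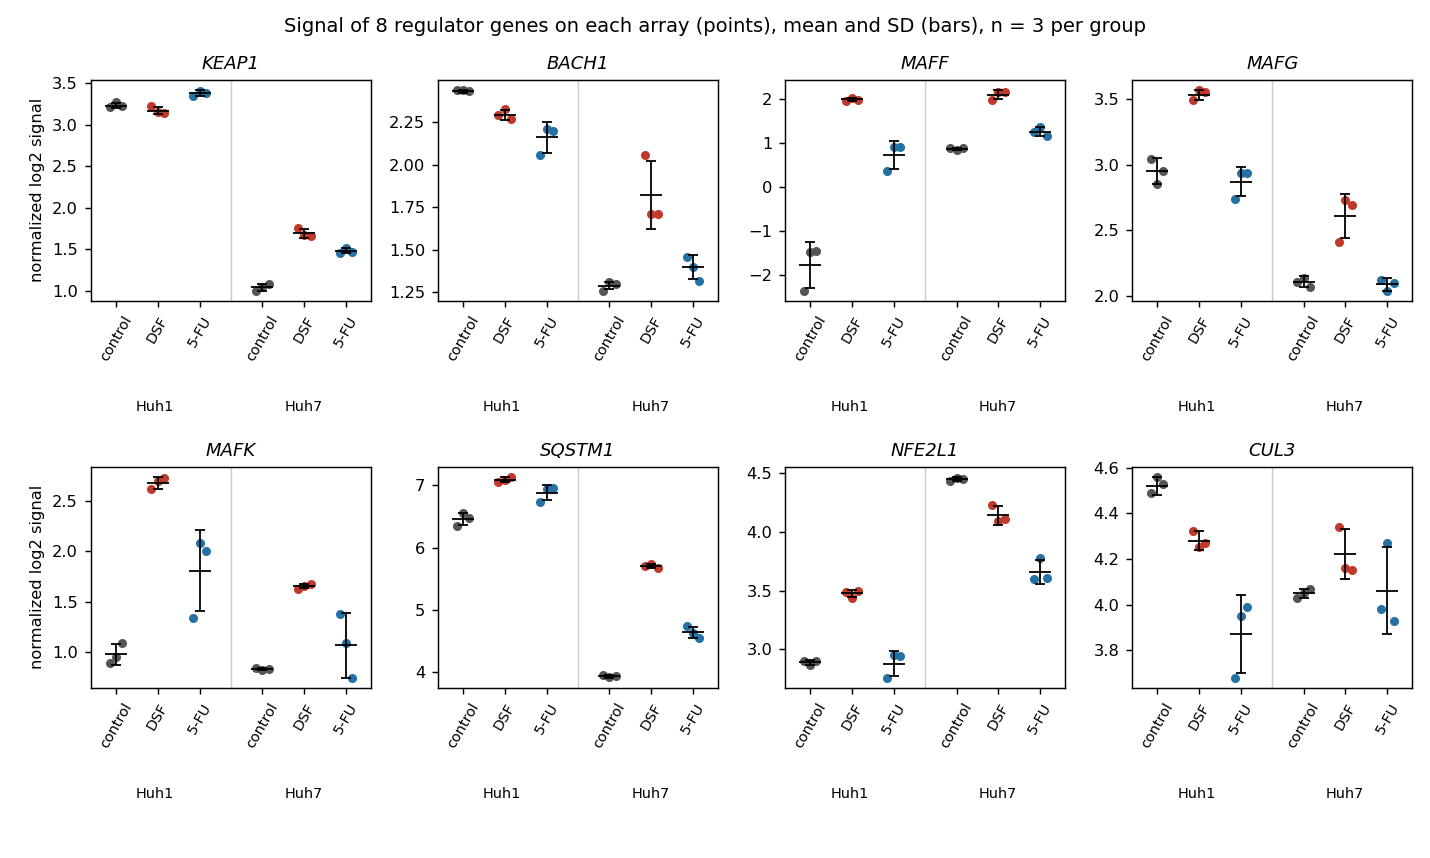
Normalized log2 signal (vertical axis, a separate scale in each panel) of 8 regulator genes on each array (points: grey control, red DSF, blue 5-FU), with mean and SD of each group of 3. MAFF, MAFK, MAFG and SQSTM1 lie above control after DSF in both lines, and KEAP1 and BACH1 in Huh7.

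Beyond the 10 genes, 57 genes of the pathway and its neighbours were tested, regulators included. DSF raised 12 and lowered 27 of them in Huh1, with a median of -0.24, and raised 21 and lowered 13 in Huh7, with a median of 0.02; 5-FU raised 8 and lowered 33 in Huh1 and raised 13 and lowered 33 in Huh7. The share called was 68.4% and 59.6% after DSF in Huh1 and Huh7, beside 52.9% and 53.4% of all genes, and 71.9% and 80.7% after 5-FU, beside 55.1% and 63.7%; the same shares of all genes apply to the smaller lists that follow. With spike-ins, for which no share of all genes was counted, these counts became 12 and 15, 12 and 15, 34 and 3, and 37 and 10. With quantile scaling they were 19 and 20 after DSF in Huh7 and 11 and 24 after 5-FU in Huh1. Within slide 2, with 1 DSF array against 3, 15 of the 57 were called after DSF in Huh7.

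A list of detoxifying enzymes and other NRF2-linked genes held the aldo-keto reductases AKR1B1, AKR1B10, AKR1C1 and AKR1C3 together with CBR1, PTGR1, NQO2, UGDH, ALDH3A1, EPHX1 and PIR. Of these 11 genes 5 rose and 2 fell with DSF in Huh7, and 0 rose and 5 fell in Huh1. None was called in opposite directions in the 2 lines, a share not counted over all genes. The difference between the lines was called above 0 for 9 of them, beside 24.5% of all genes tested. With spike-ins 4 rose and 3 fell in Huh7, 0 rose and 4 fell in Huh1, and 4 had a called difference above 0. After 5-FU 0 rose and 7 fell in Huh1 and 3 rose and 7 fell in Huh7, or 5 and 0 and 7 and 3 with spike-ins. AKR1C3, which reduces steroids, went from 2.66, 2.53 and 2.59 to 4.0, 4.60 and 4.57 in Huh7 (log2 change 1.79, adjusted p = 4.53e-05), and AKR1C1 from 4.45, 4.40 and 4.48 to 5.80, 5.76 and 5.77 (1.33, adjusted p = 0.000303). In Huh1, where both were between 7.71 and 8.30 in all 3 groups, their changes of -0.30 and -0.21 did not pass. The AKR1C genes are close paralogs, and how far each probe also binds the others was not tested. After 5-FU in Huh7 AKR1C1 fell by 1.54 and PIR, an iron-binding nuclear protein, by 1.72, or by 0.56 and 0.74 with spike-ins. EPHX1, microsomal epoxide hydrolase, and CBR1, a carbonyl reductase, fell in Huh1 with DSF by 1.04 and 0.84. In the same line 5-FU lowered EPHX1 by 0.67 and ALDH3A1 by 0.66, or they were 0.16 and 0.17 above control with spike-ins.

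The NADPH-supplying enzymes, which feed GSR and TXNRD1 with reducing power, fell in Huh1 with DSF in 5 of 6 cases; in Huh7 3 rose and 1 fell. With spike-ins 2 fell in Huh1, and 0 rose and 1 fell in Huh7. TALDO1, transaldolase of the pentose phosphate pathway, fell by 0.36 in Huh1 (adjusted p = 0.00115) and rose by 0.24 in Huh7 (adjusted p = 0.0163). IDH1 fell in both lines, by 0.46 and 0.36. After 5-FU all 6 fell in Huh1 and 5 in Huh7, whereas with spike-ins 1 rose and 1 fell in Huh1 and 4 rose in Huh7; TALDO1 fell by 0.95 in Huh1 and by 0.12 with spike-ins, while in Huh7 ME1 fell by 1.06, or 0.08 with spike-ins, and TKT changed by -0.98, or 0.01.

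Of 8 thioredoxin and glutaredoxin genes DSF raised 2 and lowered 5 in Huh1 and raised 2 and lowered 1 in Huh7, or 2 and 0 and 1 and 1 with spike-ins. TXNIP, which binds and inhibits thioredoxin, moved opposite to TXNRD1 in Huh7: it rose in Huh1 from 0.22, 0.10 and 0.14 to 1.38, 1.29 and 1.39 (1.20, adjusted p = 4.56e-06) and fell in Huh7 from 1.60, 1.54 and 1.61 to 0.55, 0.28 and 0.15 (-1.26, adjusted p = 3.33e-06). GLRX2, mitochondrial glutaredoxin, rose in Huh7 by 0.82 and TXNRD2, the mitochondrial reductase, fell in Huh1 by 0.41. After 5-FU 2 rose and 6 fell in Huh1 and 3 rose and 5 fell in Huh7 (4 and 0, and 6 and 1, with spike-ins), led by TXNIP (1.68) and GLRX (-0.88; -0.05 with spike-ins) in Huh1 and by TXNRD2 (-1.47; -0.48 with spike-ins) and GLRX2 (1.21) in Huh7.

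Genes that use, conjugate or export glutathione did not follow GCLC in Huh7: of 14 tested 1 rose and 6 fell with DSF there, and 3 rose and 8 fell in Huh1. GSTA2, an alpha-class glutathione transferase, fell by 2.01 in Huh1, from 6.5, 6.25 and 6.16 to 4.27, 4.25 and 4.36, and by 1.55 in Huh7, from 1.03, 0.95 and 1.11 to -0.44, -0.54 and -0.59 (adjusted p = 1.1e-06 and 1.26e-05). GSTA4 fell by 1.25 in Huh1. CHAC1, which degrades glutathione, rose in Huh1 by 1.02 and fell in Huh7 by 1.59 with DSF. After 5-FU 0 rose and 7 fell in Huh1 and 3 rose and 9 fell in Huh7; GSTA2 fell by 1.40 and 1.66, GPX2, a glutathione peroxidase, by 1.02 in Huh1, and CHAC1 by 3.12 in Huh7, from 2.89, 2.87 and 2.93 to -1.05, 0.31 and 0.07. With spike-ins the 5-FU counts became 9 and 1 in Huh1 and 7 and 3 in Huh7, with GSTA2 at -0.57 and -0.68 and CHAC1 at -2.13 in Huh7.

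Cysteine supply and the amino acid response, which also controls SLC7A11, were set beside that gene. SLC3A2, the heavy chain that carries SLC7A11 to the membrane, rose where its partner did not: by 1.36 and 0.83 with DSF and by 0.96 and 0.38 with 5-FU in Huh1 and Huh7. CTH, which makes cysteine from cystathionine, rose with DSF in Huh1 from 1.66, 2.08 and 2.07 to 4.09, 4.08 and 4.15 (2.17, adjusted p = 3.35e-08), and with 5-FU fell by 2.32 in Huh7 and by 0.45 in Huh1, or was 1.33 below and 0.37 above control with spike-ins. MAT2A, which makes S-adenosylmethionine, rose in Huh7 by 1.03 with DSF and 0.73 with 5-FU. Of the 4 genes of this list 2 rose and 1 fell with DSF in each line, and 2 rose and 2 fell with 5-FU in each, or 3 and 0 in Huh1 and 3 and 1 in Huh7 with spike-ins.

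Of 7 genes of the ATF4 response DSF raised 5 and lowered 1 in Huh1 and raised 2 and lowered 2 in Huh7; 5-FU raised 4 and lowered 2 in Huh1 and raised 0 and lowered 5 in Huh7. With spike-ins the 5-FU counts became 6 and 0 in Huh1 and 3 and 2 in Huh7, and the DSF counts 5 and 0 in Huh1 and 1 and 3 in Huh7. ATF3 and DDIT3, stress-induced transcription factors, rose with DSF by 2.97 and 2.69 in Huh1 and by 1.59 and 0.48 in Huh7, and with 5-FU by 2.34 and 2.21 in Huh1. In Huh7 with 5-FU ASNS, asparagine synthetase, fell from 6.80, 6.79 and 6.89 to 3.44, 4.20 and 4.17 (-2.89, adjusted p = 8.18e-08; -1.90 with spike-ins) and PSAT1, of serine synthesis, fell by 1.35, or by 0.37 with spike-ins.

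Among 6 heme and iron genes, some of which handle the products of HMOX1, 2 rose and 1 fell with DSF in Huh7 and 0 rose and 3 fell in Huh1. With spike-ins 0 rose and 2 fell in each line, so neither ferritin rise was then called. The ferritin light chain FTL rose in Huh7 from 7.17, 7.15 and 7.22 to 7.56, 7.74 and 7.71 (0.49, adjusted p = 0.000108), and the heavy chain FTH1 was called at 0.47 (adjusted p = 0.0168) with the slide 2 array, at 7.88, among the controls at 7.90, 7.89 and 7.90 and the other 2 at 8.61 and 8.62. FECH, ferrochelatase, and ABCB6, a porphyrin transporter, fell in Huh1 by 0.99 and 0.73. After 5-FU 0 rose, 3 fell in Huh1 and 4 in Huh7, against 5 and 1, and 3 and 2, with spike-ins: ABCB6 by 1.60 and 1.48, or 0.77 and 0.50 with spike-ins, and BLVRB, which reduces biliverdin, by 0.33 and 1.40, or it was 0.49 above and 0.42 below control with spike-ins.

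**Figure D5:**
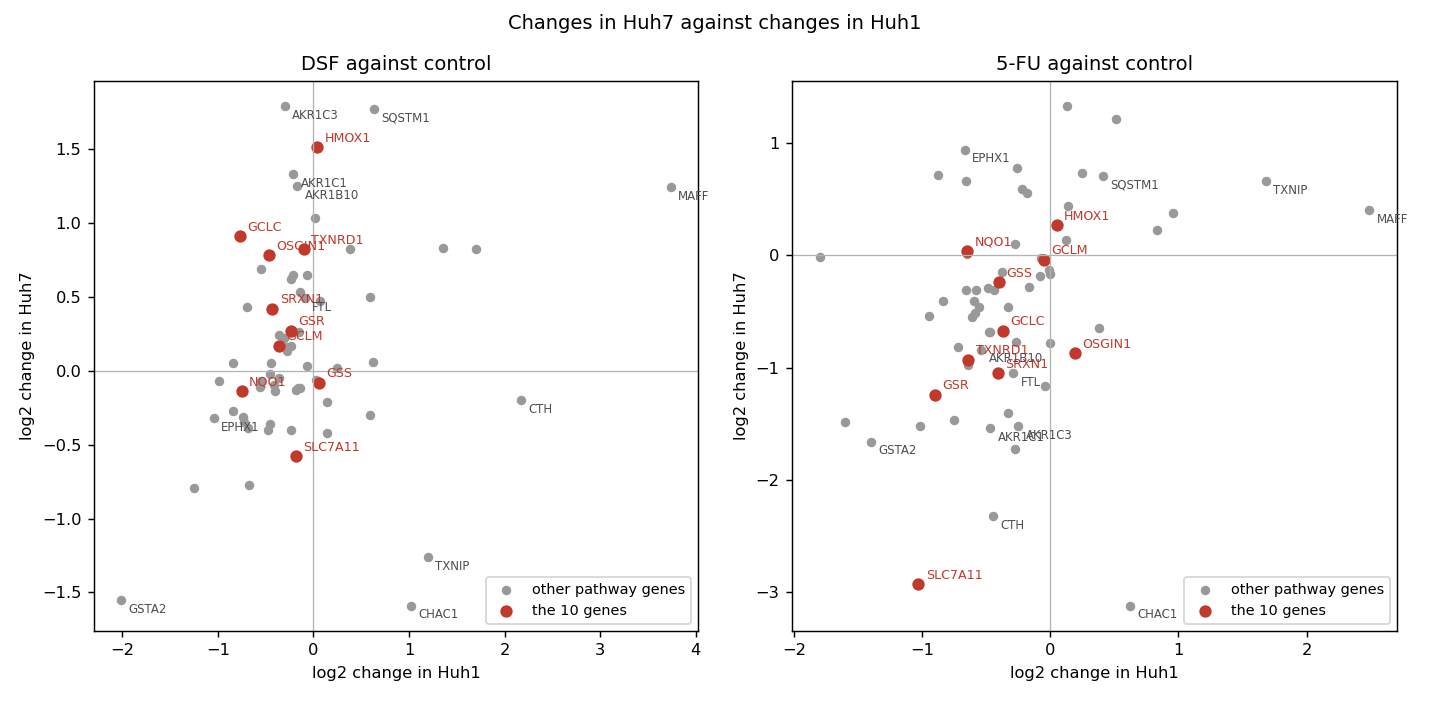
Log2 change in Huh7 (vertical axis) against the change in Huh1 (horizontal axis) after DSF (left) and 5-FU (right) for the 10 genes (red) and the other pathway genes tested (grey; 11 are named). After DSF GCLC, OSGIN1, SRXN1 and GSR, the last by its brighter probe, lie in the upper left, lower in Huh1 and higher in Huh7. After 5-FU, also with spike-in scaling, SLC7A11 and CHAC1 lie lowest in Huh7.

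Genes whose signal ran most like a member over the 18 arrays were listed by Pearson's r, as a description; because the arrays form 2 groups by line, an r over all of them also carries the difference between the lines, and r within each line was computed over 9 arrays. GCLC ran closest to ZNF746 (0.993, within lines 0.962 and 0.960), RAP1GAP2 and NUP153, and RAP1GAP2 was also closest to SRXN1 (0.993, within lines 0.973 and 0.959). Aldo-keto reductases stood among the nearest genes of 2 members: OSGIN1 with AKR1C4 (0.990) and SRXN1 with AKR1C1 (0.990, within lines 0.816 and 0.966). OSGIN1 also ran with GCLC (0.985, but 0.662 within Huh1 and 0.976 within Huh7). TXNRD1 ran closest to GHITM (0.994), SLC7A11 to LPCAT1 (0.980, within Huh7 0.997), GSR to SKIC8 (0.989), GSS to HDLBP (0.952, within lines 0.967 and 0.965) and GCLM to DLG4 (0.982). For HMOX1 the nearest, ZNF300P1 (0.992), had 0.686 within Huh1, and for NQO1 the nearest, DEPDC7 (0.995), had 0.816 within Huh7.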

How the data were processed

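The authors deposited Agilent Feature Extraction output for 18 one-color arrays, in which each processed spot intensity is background-subtracted and not scaled between arrays, and a table of normalized linear signal made in GeneSpring; on the log2 scale that deposited signal differs from the scaling used here by 0.0043 to 0.0097 on every probe. The files carry Feature Extraction 10.7.1.1, another version than the methods name.

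Here the log2 intensity was averaged over unflagged spots, the array's 75th percentile was subtracted, and 78 probes without a complete set were left out. Of 42405 probes, 29750 exceeded background in every array of some group (Agilent's flag) and were tested in a single limma fit of 6 groups. Of 27134 probes listed by RefSeq accession 25771 were named. A gene was represented by its brightest probe, and levels of different probes were not compared. The number of arrays limits the precision. No rank test was run, since exact p cannot fall below 0.1 for 3 arrays per group.

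All 10 genes and the regulators are named; of other lists, the 2 genes with the largest called change per comparison are named, except 1 gene that is not reported here, and further ones were chosen after their values were seen. The genes, lists and tests were chosen with earlier results of these data known. Normexp correction used median signals, since the files hold no mean signal. The other alternatives were quantile, median and spike-in scaling, the deposited values, 2 filters, slide and replicate blocks, array weights, separate fits per line and per slide, all probes of a gene, and each array left out; the fit without slide 3 was added after seeing the data. Scripts were tested on simulated data. Tools were R 4.3.3, limma 3.58.1 and version 1.17.8 of data.table, with figures by matplotlib 3.10.9 in Python 3.11.15.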

Additional observations from a re-analysis of the deposited data

Results flagged for a closer look

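These changes differed between Huh7 and Huh1 by the test of the difference itself (change in Huh7 minus change in Huh1, log2 scale, limma adjusted p below 0.05). For DSF the difference was 1.68 for GCLC, 1.47 for HMOX1, 1.25 for OSGIN1, 0.92 for TXNRD1, 0.85 for SRXN1, 0.61 for NQO1, 0.53 for GCLM and 0.52 for GSR. For 5-FU it was -1.90 for SLC7A11, -1.06 for OSGIN1, -0.64 for SRXN1, -0.34 for GSR, -0.30 for GCLC, -0.30 for TXNRD1 and 0.69 for NQO1. No group had enough arrays for a test of a single outlying array.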

How the results depend on the processing

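The bulk of probes moved against the spike-ins after 5-FU. Scaling on spike-ins left 2 members called after DSF in Huh1 (main 6), 5 for the line difference of DSF (main 8) and 3 for that of 5-FU (main 7); within slide 2, 4 members (main 7) and 15 other pathway genes (main 34) were called after DSF in Huh7. The cause was not tested. Directions turned as follows (log2 change). With spike-ins, 5-FU in Huh1 gave GCLC 0.46, GCLM 0.78, GSS 0.42, NQO1 0.18, TXNRD1 0.19 and SRXN1 0.41; 5-FU in Huh7 gave GCLC 0.31, GCLM 0.94, GSS 0.74, TXNRD1 0.05 and OSGIN1 0.11; DSF gave TXNRD1 0.03 in Huh1 and GCLM -0.01 in Huh7; DSF against 5-FU gave GSS -0.23, GSR -0.04 and TXNRD1 -0.16 in Huh1 and GCLM -0.95 and GSS -1.0 in Huh7. With median scaling, DSF in Huh1 gave GSS -0.11 and HMOX1 -0.13, and the line difference of GSS was 0.01. With slide as a block, within slide 2 and, as added, with the Huh7 DSF arrays of slide 3 left out, Huh7 gave GCLM -0.11 and GSS 0.05 for DSF and GCLM -0.07 for DSF against 5-FU; the block also gave a line difference of 0.01 for GSS. With quantile scaling, 5-FU in Huh1 gave GCLM 0.08, and line differences of 5-FU were -0.15 for GCLM and -0.13 for HMOX1; GCLM gave -0.01 there with normexp and -0.07 with array weights, which also gave SRXN1 0.01 for DSF against 5-FU in Huh1.

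Leaving out 1 array at a time turned only changes that were not called: HMOX1 (-0.03 to 0.23) for 5-FU and (-0.19 to 0.07) for DSF against 5-FU and SRXN1 (-0.03 to 0.02) for DSF against 5-FU in Huh1, GCLM (-0.12 to 0.03) and NQO1 (-0.02 to 0.08) for 5-FU in Huh7, and the line difference of GCLM for 5-FU (-0.07 to 0.07). Same-numbered arrays did not deviate together (18 correlations from -0.093 to 0.025), so no pairing by replicate number was seen. Such correlations cannot exclude that same-numbered samples came from a shared experiment. With the replicate block, members called were 6, 7, 7 and 7 for DSF and 5-FU in Huh1 and Huh7 taken in turn, as without it, 7 for DSF against 5-FU in Huh7 (main 9) and 5 for the line difference of 5-FU (main 7).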
